A study of Homo sapiens with 2 samples.

Results

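The genes described are 35 components of macroautophagy and its cargo receptors, chosen by name from a fixed symbol list, and all 35 were found among the 16005 genes of the deposited expression table. They cover the initiation kinase complex, the phosphatidylinositol 3-kinase complexes, the membrane supply and lipid-binding proteins, the conjugation enzymes, the ATG4 proteases, the LC3 and GABARAP proteins and 5 cargo receptors. The rule that picks them reads gene names and no expression value, but the list itself was chosen with earlier results of these data known. RNA was measured in BE(2)-C, an established human neuroblastoma cell line of wild-type genotype, after 7 days in EMEM/F12 (Eagle's minimum essential medium with Ham's F12) or in HPLM (human plasma-like medium, whose small-molecule composition follows that of plasma). Both media held 10% FBS and 1% P/S, so serum and antibiotics were shared by the groups. Polyadenylated RNA was sequenced, and GEO lists 1 sample per medium while the table holds 3 library columns for each. The 3 libraries were treated as repeats of 1 sample, and the sources used here do not say whether they came from separate cultures, so p-values measure the spread between libraries, which may be technical.

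Macroautophagy encloses cytoplasm in a growing double membrane, the phagophore, which closes into an autophagosome and fuses with a lysosome. The ULK1 kinase complex starts the process when amino acids or energy run short, and a lipid kinase built around PIK3C3 then marks the membrane with phosphatidylinositol 3-phosphate (PI3P). A ubiquitin-like conjugation system attaches LC3 and GABARAP proteins to that membrane, and cargo receptors tie ubiquitinated proteins or organelles to them. LC3 and the receptor SQSTM1 are themselves degraded in the lysosome, so their transcript levels are a separate quantity from protein level and from the flow of material through the pathway, neither of which was measured.

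Transcripts of the autophagy machinery were more often higher than lower in HPLM. Of the 35 genes, 22 rose, 3 fell (ULK2, ATG3 and ATG4D) and 10 did not pass the test, which was an adjusted p under 0.05 in the authors' deposited table. Among all genes of the table, 4293 of the 16004 tested rose, 26.8%, and 4612 fell, 28.8%. The same shares are to be set beside the counts of each role group given below. The median log2 fold change of the 35 genes was 0.33 in the authors' deposited table, beside 0.01 over all genes tested, and 26 of the 35 values were above 0. All 3 HPLM libraries lay above all 3 EMEM/F12 libraries for 23 genes and below them for 6, against 33.6% and 35% of all genes. The shares of all genes were not matched for abundance. Rows of the deposited table reach down to 61 reads over the 6 libraries, while the lowest mean of the 35 genes was 89.7 normalised reads per library. The rises were mostly small: 2 of the 22, WIPI1 and MAP1LC3B, reached 2-fold, a size reached by 5.39% of all genes, and the other 20 stayed under it.

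The sequences at 3 start sites are shown here because they belong to the pair of genes that rose most and to a gene that fell and holds the letters recognised by the lysosome and autophagy regulators TFEB and TFE3. They were read 5′ to 3′ from the RefSeq promoter table (GRCh38.p14), which held 31 of the 35 genes, with no entry matched for MAP1LC3A, ATG4D, UVRAG and RB1CC1. The choice of these stretches was made after the expression values were seen.
WIPI1, chr17:68457497-68457746, minus strand: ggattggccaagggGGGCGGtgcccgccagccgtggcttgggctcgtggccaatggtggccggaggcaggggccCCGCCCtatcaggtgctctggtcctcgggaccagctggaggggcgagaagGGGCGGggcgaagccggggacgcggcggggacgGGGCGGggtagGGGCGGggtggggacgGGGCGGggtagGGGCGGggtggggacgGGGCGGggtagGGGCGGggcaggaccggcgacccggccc
MAP1LC3B, chr16:87392280-87392309, plus strand: gcgagtcaccTGACCAGGCTgcgggctgag
ATG3, chr3:112561951-112561980, minus strand: CACGTGccgggagagtctagtgtCACGTGa
In WIPI1, the 250 bases before the start, capitals mark GGGCGG or its complement, the GC box bound by SP1-type factors. That stretch held 9 such matches, most of them within a short sequence that recurs in it, and 0.363% of the 27305 gene symbols in the promoter table had at least as many. The corresponding 250 bases of MAP1LC3B held 3, a number reached by 16.4% of symbols. The GC box was not among the motifs planned for the search and was counted only in these genes and over all symbols. Its share therefore describes a pattern picked for display and was not tested. In MAP1LC3B, 30 bases from 56 to 27 before the start are printed, and capitals mark a match to the core of the antioxidant response element, the sequence read by NFE2L2. That pattern was found in 46.9% of symbols in the windows described below, so a match is common. The RefSeq start used lies inside the annotated span of MAP1LC3B, and the printed bases fall in an exon of an annotated transcript. In ATG3, 30 bases from 18 before to 12 after the start are printed, and capitals mark both copies of the E-box CACGTG. The annotated span of ATG3, on the minus strand, begins at position 112562046, so all the printed bases of ATG3 lie inside it. With the bases beside it, the downstream copy spells TCACGTGA, the core of the CLEAR element recognised by TFEB.

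The windows from 250 bases before to 50 after the start were searched on both strands in the 31 genes and in all symbols of the table. TCACGTGA was found in 1 of 31 genes, ATG3, and in 1.18% of all symbols. CACGTG, which every TCACGTGA contains, was found in 2 genes, ATG3 and ATG14, and in 8.77% of symbols. TGATGNAAN, the composite element bound by ATF4 and C/EBP proteins such as DDIT3, was found in none of the 31 and in 4.45% of symbols. The AP-1 site TGACTCA was likewise in none of the 31 and in 6.05% of symbols. The antioxidant response element core, a permissive pattern that can overlap the others, was found in 14 genes and in 46.9% of symbols. These counts describe letters in a short window and say nothing about binding, and elements farther upstream or within introns were not searched.

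The cargo receptors moved most evenly, and all 5 of them rose. These proteins carry a motif that binds LC3 or GABARAP and a domain that binds ubiquitin. Their log2 fold changes in the authors' deposited table lay between 0.72 and 0.93, with a median of 0.90. By size of change they held ranks 3, 4, 5, 6 and 8 among the 35 genes. Library values below are normalised read counts, listed in the order of libraries 1, 2 and 3, and each log2 ratio is that of the HPLM mean to the EMEM/F12 mean with its standard error over 3 libraries per medium.

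SQSTM1 (p62, ENSG00000161011, GRCh38 chr5:179806398-179838078) gathers ubiquitinated proteins into condensates and also binds KEAP1. Its normalised read counts were 2415, 2533 and 2657 in EMEM/F12 and 4129.6, 4156 and 4266 in HPLM. Every HPLM library was above every EMEM/F12 library, and the log2 ratio was 0.72 ± 0.04, or 1.65-fold (adjusted p = 2.72e-46 in the authors' deposited table). NBR1 (ENSG00000188554, chr17:43170481-43211689), a related receptor with the same domain order that works beside SQSTM1, had 1745, 1757 and 1726 normalised reads in EMEM/F12 and 3259, 3236 and 3353 in HPLM. The media were far apart relative to the libraries, with a log2 ratio of 0.91 ± 0.02, or 1.88-fold (adjusted p = 3.96e-72 in the authors' deposited table).

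CALCOCO2 (NDP52, ENSG00000136436, chr17:48830988-48866522), a receptor for bacteria and damaged mitochondria, showed the largest ratio among the receptors. It had 395, 346 and 392 normalised reads in EMEM/F12 and 685, 761 and 713 in HPLM, with no overlap, a log2 ratio of 0.93 ± 0.07 and a 1.91-fold difference (adjusted p = 1.03e-21 in the authors' deposited table). TAX1BP1 (ENSG00000106052, chr7:27739331-27844564), a paralogue of CALCOCO2 that brings initiation factors to NBR1-containing cargo, had 627, 652 and 691 in EMEM/F12 and 1080.4, 1173 and 1116 in HPLM. That was a 1.71-fold difference, log2 0.77 ± 0.05, again without overlap (adjusted p = 2.48e-23 in the authors' deposited table). OPTN (optineurin, ENSG00000123240, chr10:13099449-13138308), a mitophagy receptor phosphorylated by TBK1, was the least abundant of the 5 by read count. Its EMEM/F12 values of 221, 267 and 295 were more scattered than its HPLM values of 492, 498 and 468, and the media did not overlap. The log2 ratio was 0.90 ± 0.12, or 1.86-fold (adjusted p = 1.05e-13 in the authors' deposited table). TBK1 itself had a log2 ratio of 0.19 ± 0.03 and did not pass (adjusted p = 0.0682 in the authors' deposited table).

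On a per-length scale, SQSTM1 was the most abundant receptor transcript in both media, with a mean level of 849 normalised reads per kilobase of the longest annotated transcript in EMEM/F12 and 1401 in HPLM. NBR1 was next, at 374 and 705 per kilobase. OPTN was lowest, at 74.1 and 138.0 per kilobase. Reads of SQSTM1 have a limit of their own, since the library kit does not keep strand and exons of MRNIP lie opposite 20.7% of its exon bases over all transcripts. In its longest transcript, 50.7% of the 50-base sequences also occur in MRNIP, read on either strand. MRNIP had a log2 ratio of 0.18 ± 0.06 and did not pass (adjusted p = 0.058 in the authors' deposited table).

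**Figure D1:**
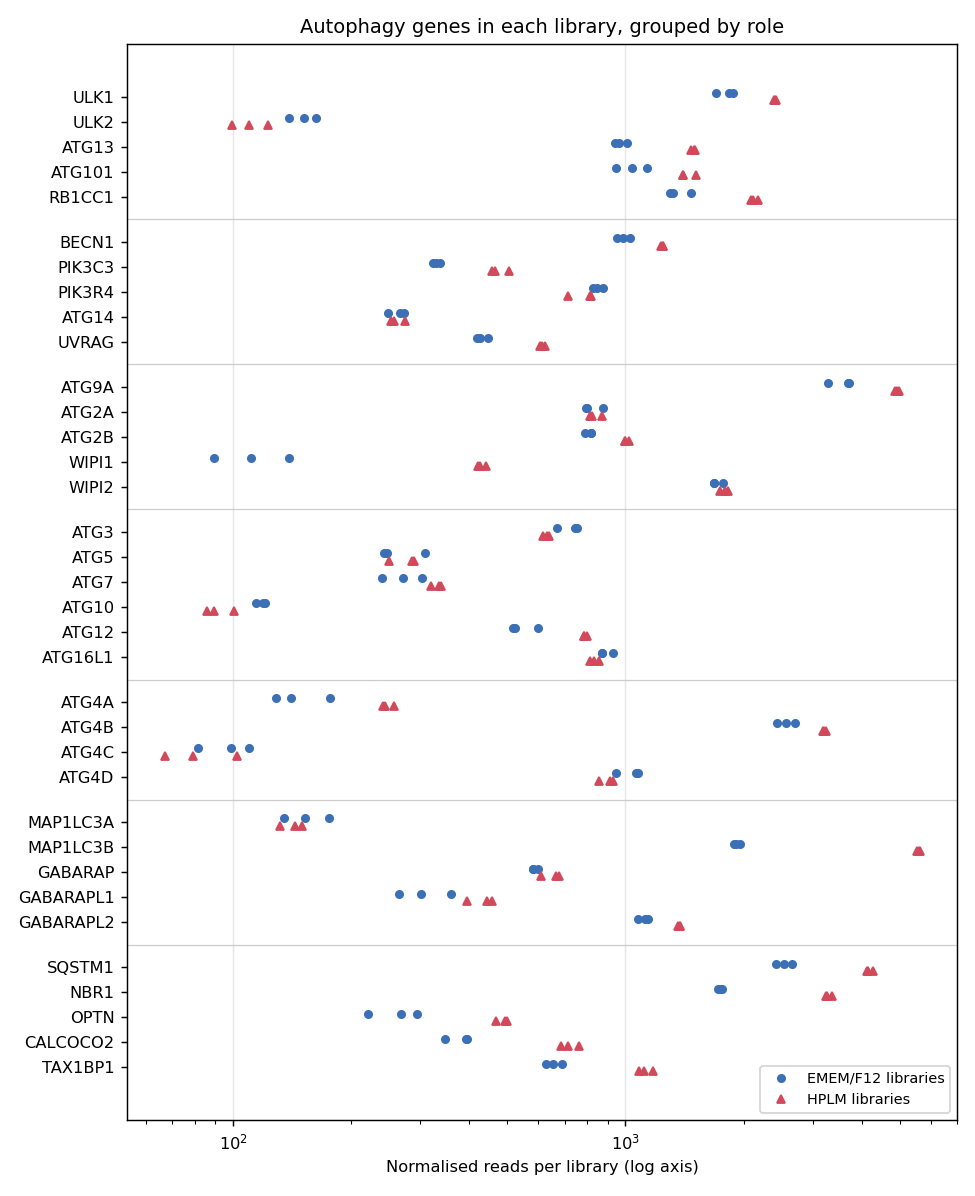
Normalised reads per library on a log axis for each of the 35 genes, grouped by role, with blue circles for the 3 EMEM/F12 libraries and red triangles for the 3 HPLM libraries. All 5 cargo receptors, WIPI1 and MAP1LC3B have every HPLM library above every EMEM/F12 library.

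The LC3 and GABARAP genes changed unequally, with the largest rise in MAP1LC3B. These small ubiquitin-like proteins are conjugated to phosphatidylethanolamine in the phagophore membrane, where receptors bind them. Of the 5 genes 3 rose and 2 did not pass, and the family median was a log2 fold change of 0.30 in the authors' deposited table. MAP1LC3B (ENSG00000140941, chr16:87383995-87404779), the LC3 form most often used as an autophagosome marker, had 1954, 1893 and 1917 normalised reads in EMEM/F12 and 5523, 5608 and 5621 in HPLM. Libraries of one medium differed by a few percent while the media differed 2.91-fold, log2 1.54 ± 0.02 (adjusted p = 6.18e-246 in the authors' deposited table). MAP1LC3A, its paralogue, had 175, 135 and 152 in EMEM/F12 and 132, 144 and 150.2 in HPLM. The MAP1LC3A values overlapped between media, with a log2 ratio of -0.12 ± 0.12 (adjusted p = 0.564 in the authors' deposited table). MAP1LC3B shares 6.88% of its 50-base sequences with the near-identical gene MAP1LC3B2, so a small part of its reads cannot be assigned with certainty.

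GABARAPL1, the family member that FOXO factors are known to induce in other tissues, had 265, 301 and 359 normalised reads in EMEM/F12 and 443, 457 and 394 in HPLM. The media did not overlap, though the highest EMEM/F12 library came near the lowest HPLM library, and the log2 ratio was 0.49 ± 0.14 (adjusted p = 0.000198 in the authors' deposited table). GABARAPL2, which also acts in Golgi traffic, had 1139, 1074 and 1120.0 in EMEM/F12 and 1359.8, 1379.6 and 1379.5 in HPLM. Its rise was small but much larger than the spread, at log2 0.31 ± 0.03 (adjusted p = 5.15e-06 in the authors' deposited table). GABARAP had 598, 581 and 582 in EMEM/F12 and 665, 610.2 and 676 in HPLM. Its HPLM libraries were all above its EMEM/F12 libraries, yet the difference of 0.15 ± 0.05 on the log2 scale did not pass (adjusted p = 0.133 in the authors' deposited table). GABARAP values are uncertain as well because 72.6% of its 50-base sequences also occur in other annotated genes, 40.6% in the read-through gene AC120057.2.

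Summed per kilobase over the 5 genes, the family level was 1694, 1621 and 1679 in the EMEM/F12 libraries and 3017, 3031 and 3060.4 in the HPLM libraries. The mean therefore went from 1664 ± 38.4 to 3036 ± 22.2 (SD, n = 3 libraries), with no overlap. MAP1LC3B supplied 37.4% ± 0.42 of the family's per-kilobase level in EMEM/F12 and 59.6% ± 0.32 in HPLM (SD, n = 3). The share of GABARAPL2 was 29.3% ± 0.22 and 19.9% ± 0.11, and that of GABARAP 21.6% ± 0.37 and 13.1% ± 0.68. Thus the shares of both were lower in HPLM although neither gene's own level was lower. MAP1LC3A made up 5.88% ± 0.65 and 2.97% ± 0.17, and GABARAPL1 5.76% ± 0.89 and 4.42% ± 0.36. No test was run on these shares, which are bound to sum to the whole within a library.

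**Figure D2:**
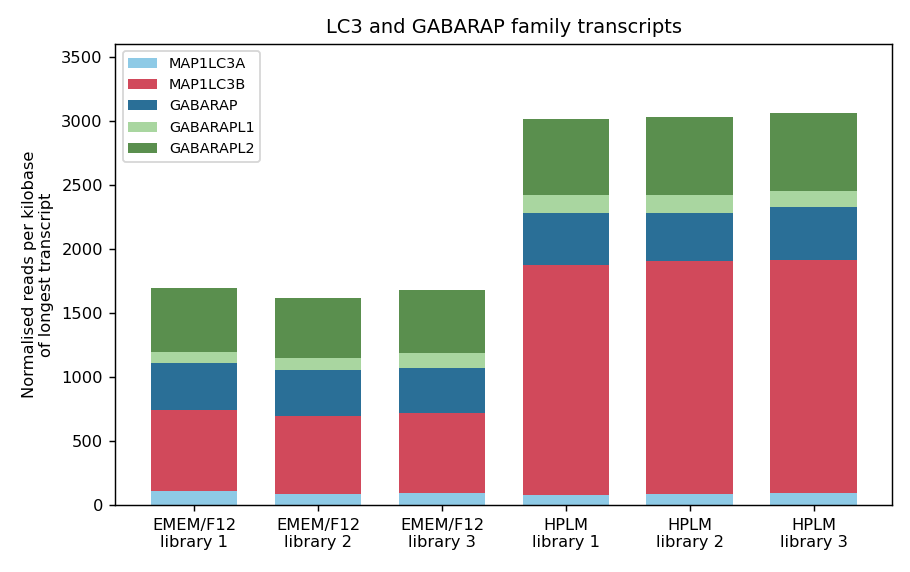
Stacked bars of normalised reads per kilobase of the longest transcript for the 5 LC3 and GABARAP genes, 1 bar per library. The bars reach 1621 to 1694 in EMEM/F12 and 3017 to 3060.4 in HPLM, and MAP1LC3B makes up 37.0% to 37.9% of them in EMEM/F12 and 59.3% to 60.0% in HPLM.

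Among the proteins that supply membrane or bind PI3P, 3 of 5 rose and 2 did not pass, with a median log2 fold change of 0.32 in the authors' deposited table. WIPI1 (ENSG00000070540, chr17:68420948-68457513), a propeller protein that binds PI3P on the phagophore, had the largest change of all 35 genes. It had 111, 89.5 and 139 normalised reads in EMEM/F12 and 425, 441 and 421 in HPLM, far apart from each other. The ratio was 3.79-fold, log2 1.92 ± 0.18 (adjusted p = 5.51e-39 in the authors' deposited table), and the log2 ratio was 2.09 without EMEM/F12 library 3. Exons of ARSG on the opposite strand cover 24.3% of the exon bases of WIPI1. ARSG rose as well, by a log2 ratio of 0.64 ± 0.07, and which reads belong to which gene there was not tested.

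WIPI2, the relative that recruits ATG16L1 to the phagophore, had a ratio near 0. It had 1769, 1677 and 1677 normalised reads in EMEM/F12 and 1792, 1822 and 1744 in HPLM, with overlap, and a log2 ratio of 0.06 ± 0.03 (adjusted p = 0.345 in the authors' deposited table). The log2 ratio of WIPI1 to WIPI2 normalised reads averaged -3.94 in EMEM/F12 and -2.06 in HPLM, a difference of 1.88, without overlap between the media. Per kilobase, WIPI1 had a mean level of 60.1 in EMEM/F12 and 227 in HPLM, against 381 and 399 for WIPI2, so WIPI2 remained the more abundant transcript in both.

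ATG9A, a lipid scramblase carried on the vesicles that seed the phagophore, had 3692, 3717 and 3273 normalised reads in EMEM/F12 and 4927, 4865 and 4979 in HPLM. Over all 6 libraries this was the highest mean read count among the 35 genes, with a log2 ratio of 0.47 ± 0.06 and no overlap (adjusted p = 2.7e-18 in the authors' deposited table). In ATG9A, 44.8% of the 50-base sequences also occur in the overlapping annotated gene AC068946.2. The lipid-transfer proteins ATG2A and ATG2B, which bridge the endoplasmic reticulum and the phagophore, differed from each other. ATG2B had 786, 818 and 817 in EMEM/F12 and 1023, 998 and 999.5 in HPLM, a log2 ratio of 0.32 ± 0.02 (adjusted p = 2.43e-05 in the authors' deposited table). ATG2A had 798, 875 and 792 in EMEM/F12 and 812, 824 and 869 in HPLM, a ratio of 0.02 ± 0.06 that did not pass (adjusted p = 0.809 in the authors' deposited table). The log2 ratio of ATG2A to ATG2B normalised reads averaged 0.02 in EMEM/F12 and -0.27 in HPLM, and the libraries of the media did not overlap.

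In the initiation complex, 4 of the 5 transcripts rose and the kinase ULK2 fell, with a median log2 fold change of 0.47 in the authors' deposited table. RB1CC1 (FIP200), the scaffold that also binds cargo receptors, had 1320.3, 1295 and 1470.5 normalised reads in EMEM/F12 and 2085, 2173 and 2108 in HPLM. Its log2 ratio of 0.64 ± 0.06 was the largest of the complex (adjusted p = 8.49e-24 in the authors' deposited table). ATG13, the adaptor through which mTORC1 restrains the kinase, was close behind, with 942, 1010.0 and 961 in EMEM/F12 and 1507, 1498 and 1468 in HPLM. Its log2 ratio was 0.62 ± 0.03 (adjusted p = 7.4e-21 in the authors' deposited table). For ATG101, the partner that stabilises ATG13, counts were 1040.0, 1136 and 945 in EMEM/F12 and 1509.9, 1404 and 1404 in HPLM. The log2 ratio was 0.47 ± 0.08 (adjusted p = 8.98e-10 in the authors' deposited table), and 40.8% of the 50-base sequences of ATG101 also occur in the antisense gene AC025259.1. In none of these 3 genes did the media overlap.

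The 2 kinases of the complex moved in opposite directions. ULK1 had 1835, 1875 and 1704 normalised reads in EMEM/F12 and 2420.2, 2397 and 2407 in HPLM, a log2 ratio of 0.42 ± 0.04 (adjusted p = 3.18e-13 in the authors' deposited table). ULK2 had 152, 163 and 139 in EMEM/F12 and 123, 109.5 and 99.2 in HPLM, and all HPLM libraries lay below all EMEM/F12 libraries. Its log2 ratio was -0.45 ± 0.11 (adjusted p = 0.0209 in the authors' deposited table). ULK2 was the scarcer kinase throughout, at a mean level of 25.1 normalised reads per kilobase in EMEM/F12 and 18.4 in HPLM, beside 340 and 454 for ULK1. The log2 ratio of ULK1 to ULK2 reads averaged 3.58 in EMEM/F12 and 4.45 in HPLM, a difference of 0.87 with no overlap.

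**Figure D3:**
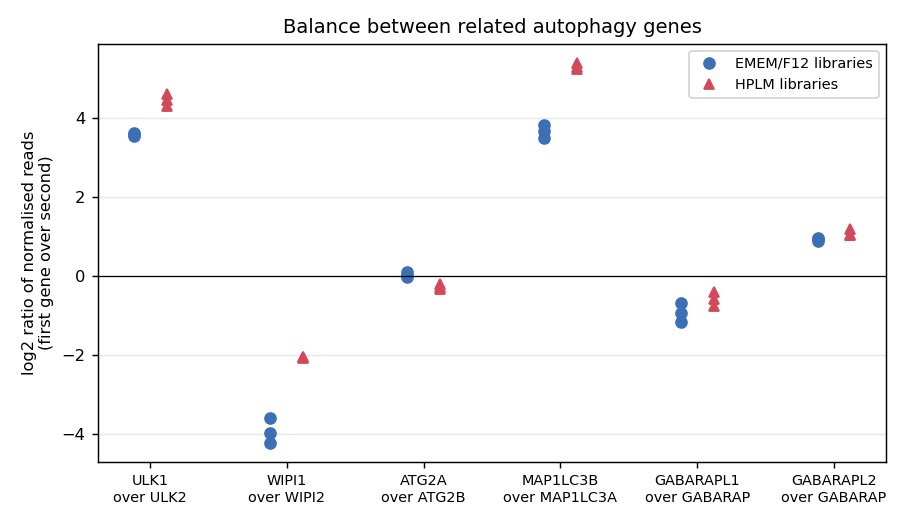
Log2 ratio of normalised reads between 6 pairs of close relatives in each library (3 per medium). The media separate in 5 pairs and overlap for GABARAPL1 over GABARAP. The differences were 1.88 for WIPI1 over WIPI2, 1.65 for MAP1LC3B over MAP1LC3A and 0.87 for ULK1 over ULK2. They were only -0.29 for ATG2A over ATG2B and 0.16 for GABARAPL2 over GABARAP. Among single genes, 33.6% of all tested had every HPLM library above every EMEM/F12 library and 35% below, and no such share was computed for pairs.

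The phosphatidylinositol 3-kinase complexes had 3 of 5 transcripts rise and 2 not pass, with a median log2 fold change of 0.33 in the authors' deposited table. PIK3C3 (VPS34), the catalytic subunit, had 329.8, 323 and 337 normalised reads in EMEM/F12 and 465, 503 and 458 in HPLM. Its log2 ratio was 0.53 ± 0.05 (adjusted p = 1.27e-06 in the authors' deposited table). BECN1 (beclin 1), the regulatory subunit held in check by BCL2, had 953, 1024 and 983 in EMEM/F12 and 1243, 1229.5 and 1244 in HPLM. The change was smaller, at log2 0.33 ± 0.03 (adjusted p = 2.65e-06 in the authors' deposited table). PIK3R4 (VPS15), the pseudokinase that anchors PIK3C3, had 877, 847 and 829 in EMEM/F12 and 715, 815 and 812 in HPLM. Its HPLM libraries were all below its EMEM/F12 libraries, but the log2 ratio of -0.12 ± 0.07 did not pass (adjusted p = 0.181 in the authors' deposited table).

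The subunits that set apart the complexes of PIK3C3 differed. UVRAG, found in the complex of endosomes and autophagosome maturation, had 419, 445 and 425 normalised reads in EMEM/F12 and 605, 613 and 622 in HPLM, a log2 ratio of 0.51 ± 0.03 (adjusted p = 5.74e-08 in the authors' deposited table). ATG14, found in the complex that acts at the phagophore, had 273, 249 and 267 in EMEM/F12 and 253, 257 and 274 in HPLM, a ratio of -0.01 ± 0.05 (adjusted p = 0.951 in the authors' deposited table). The ATG14 libraries overlapped fully between media. The difference between the 2 genes was not tested.

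Of the 6 conjugation enzymes, 2 rose, 1 fell and 3 did not pass, against 26.8% higher and 28.8% lower among all genes tested. Their median log2 fold change was -0.02 in the authors' deposited table. ATG12, the ubiquitin-like protein joined to ATG5, had 517, 523 and 597 normalised reads in EMEM/F12 and 784, 786 and 797 in HPLM, a log2 ratio of 0.53 ± 0.07 (adjusted p = 2.75e-09 in the authors' deposited table). ATG5, its partner, had 246, 243 and 308 in EMEM/F12 and 249.9, 286 and 289.7 in HPLM, with overlap and a ratio of 0.05 ± 0.13 (adjusted p = 0.775 in the authors' deposited table). ATG16L1, which places the ATG12-ATG5 conjugate on the membrane, had 869, 928 and 873 in EMEM/F12 and 832, 809.9 and 854 in HPLM. Its ratio of -0.10 ± 0.04 did not pass, although its HPLM libraries were all lower (adjusted p = 0.273 in the authors' deposited table).

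ATG7, the activating enzyme for both conjugation branches, had 240.1, 271 and 303 normalised reads in EMEM/F12 and 320.2, 339 and 334 in HPLM. The log2 ratio was 0.29 ± 0.10 (adjusted p = 0.0347 in the authors' deposited table), and of the 22 rises it was the one whose call depended on the settings. Exons of VGLL4 on the opposite strand cover 18.1% of the exon bases of ATG7 and share 31.5% of the 50-base sequences of its longest transcript, and VGLL4 rose by a log2 ratio of 0.30 ± 0.06. ATG3, the enzyme that transfers LC3 to lipid and the gene with the TCACGTGA shown above, fell from 750.3, 671 and 746 in EMEM/F12 to 616, 637 and 630.3 in HPLM. Its log2 ratio was -0.20 ± 0.05 (adjusted p = 0.0277 in the authors' deposited table). ATG10, the transfer enzyme for ATG12, had 114, 121 and 119 in EMEM/F12 and 89.3, 100.3 and 85.8 in HPLM. All HPLM libraries were lower, yet the ratio of -0.36 ± 0.07 did not pass (adjusted p = 0.0959 in the authors' deposited table).

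The ATG4 cysteine proteases trim newly made LC3 and GABARAP proteins and release them from membranes. Of the 4 genes, 2 rose, 1 fell and 1 did not pass, against 26.8% higher and 28.8% lower among all genes tested. ATG4A, which prefers GABARAP proteins, had 129, 141 and 176 normalised reads in EMEM/F12 and 241, 257 and 244 in HPLM. Its log2 ratio of 0.74 ± 0.14 came without overlap between the media (adjusted p = 4.57e-06 in the authors' deposited table). ATG4B, the main protease for LC3, had 2707, 2571 and 2438 in EMEM/F12 and 3246, 3205 and 3185 in HPLM, a ratio of 0.32 ± 0.04 (adjusted p = 2.84e-09 in the authors' deposited table). ATG4D fell from 1074, 1064 and 947 to 931, 857 and 913, a ratio of -0.19 ± 0.07 (adjusted p = 0.0229 in the authors' deposited table). ATG4C, the least abundant of the 35 genes by read count, had 81.4, 98.8 and 109.9 in EMEM/F12 and 78.9, 102 and 67.1 in HPLM, with overlap and a ratio of -0.23 ± 0.22 (adjusted p = 0.407 in the authors' deposited table). Per kilobase, ATG4B was the most abundant protease transcript, at a mean level of 781 in EMEM/F12 and 975 in HPLM, and ATG4D was next at 527 and 462. KRI1, whose opposite-strand exons cover 15% of the exon bases of ATG4D, fell by 0.17 on the log2 scale.

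The 3 falls were the less secure calls. ULK2, ATG3 and ATG4D had adjusted p-values of 0.0209, 0.0277 and 0.0229 in the authors' deposited table, and all 3 missed a threshold of 0.01, which 21 of the 22 rises met. Refitting the recovered reads with DESeq2 gave 3 falls when EMEM/F12 library 3 was left out, 2 without HPLM library 1, 1 without EMEM/F12 library 2 and 0 without EMEM/F12 library 1, HPLM library 2 or HPLM library 3. At an unadjusted p under 0.05, DESeq2 without each of those last 3 libraries gave 1, 2 and 2 falls. On all libraries at that threshold, DESeq2 called 3 and edgeR called 4.

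**Figure D4:**
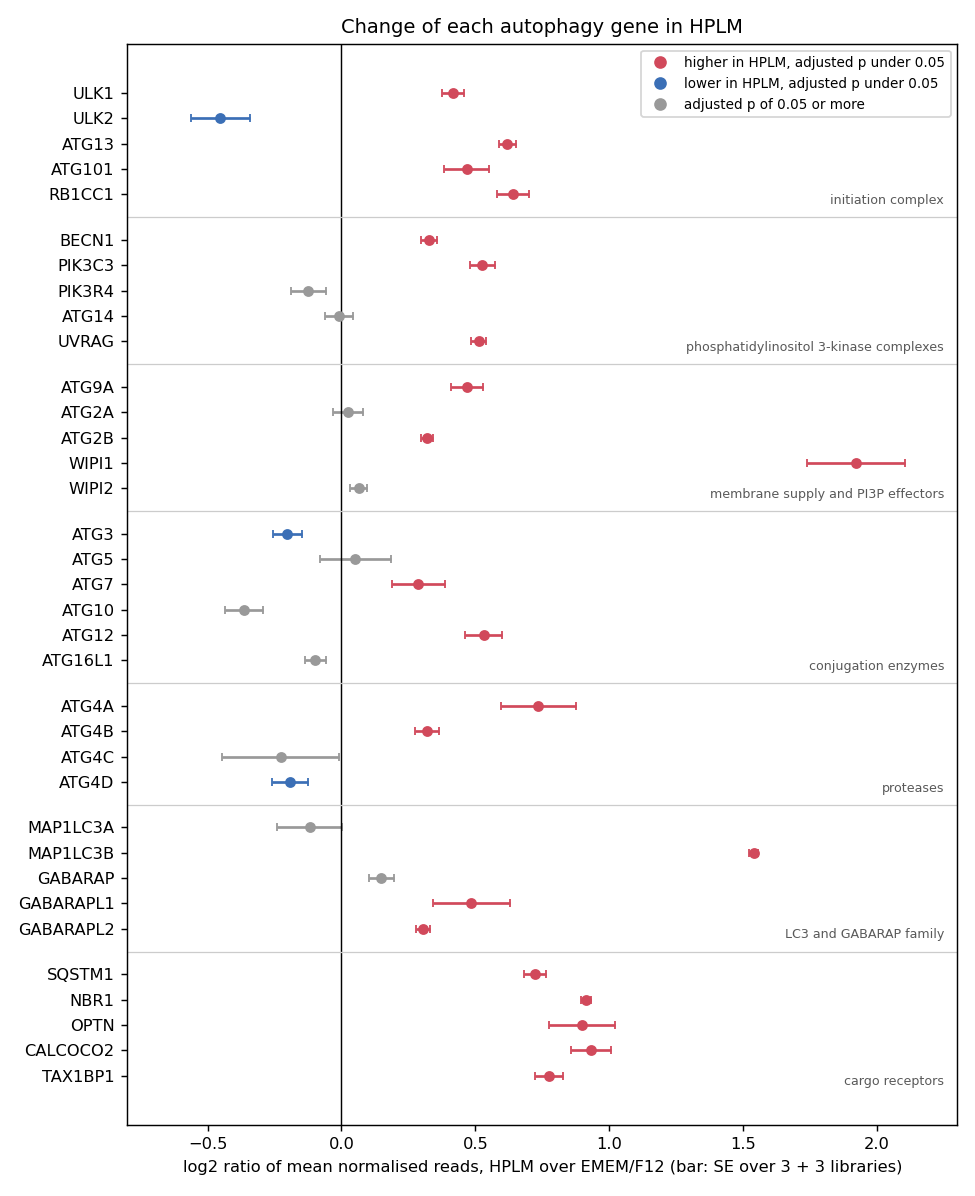
Log2 ratio of mean normalised reads, HPLM to EMEM/F12, for each of the 35 genes with its standard error over 3 libraries per medium, grouped by role and coloured by the call in the authors' deposited table. The 5 cargo receptors lie between 0.72 and 0.93, WIPI1 at 1.92 and MAP1LC3B at 1.54, while the conjugation enzymes lie on both sides of 0.

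Beyond the 35 genes, 49 other genes of autophagy and its control were listed by function, of which 47 were measured. Of these 26 rose, 3 fell and 18 did not pass, with a median log2 fold change of 0.28 in the authors' deposited table, close to the 0.33 of the 35 genes. Among all genes tested, 26.8% rose and 28.8% fell, and these shares are also the ones to set beside the counts of each list below. Other core and early factors had 8 of 12 rise and 1 fall. The largest rises there were ZFYVE1 (DFCP1), a marker of the membrane sites where phagophores form, at a log2 ratio of 0.97 ± 0.07, and SH3GLB1 (BIF-1), a membrane-curving partner of UVRAG, at 0.97 ± 0.02. ATG16L2, a paralogue of ATG16L1, fell from 264, 255 and 221 normalised reads in EMEM/F12 to 148, 159 and 148 in HPLM, a log2 ratio of -0.70 ± 0.08. Among 12 measured genes of fusion with lysosomes, 6 rose and RAB7A, the late endosome GTPase, fell by 0.10 ± 0.01 on the log2 scale. PLEKHM1, an adaptor of that GTPase, rose by 0.74 ± 0.05 and the tether EPG5 by 0.52 ± 0.21, whose EMEM/F12 values of 268, 234 and 376 were scattered.

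Receptors of the endoplasmic reticulum and mitochondria were mixed, with 7 of 14 higher, 1 lower and 6 that did not pass. CCPG1, a receptor for autophagy of the endoplasmic reticulum, had 661, 728 and 711 normalised reads in EMEM/F12 and 2507, 2529 and 2522 in HPLM. Its log2 ratio of 1.85 ± 0.04, or 3.6-fold, was of the size seen for WIPI1 (adjusted p = 2.25e-188 in the authors' deposited table). BCL2L13, a mitophagy receptor, rose by 0.89 ± 0.04, and PHB2, an inner membrane prohibitin, fell by 0.41 ± 0.03 on the log2 scale. Of 9 other adaptors, 5 rose and 4 did not pass, with the largest rises in WDFY3 (ALFY) at 0.80 ± 0.05 and HDAC6 at 0.38 ± 0.08.

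Of 10 transcription factors known to act on autophagy genes, 6 rose and 4 did not pass. DDIT3 (CHOP), a stress-induced factor, had 173, 128 and 163 normalised reads in EMEM/F12 and 832, 804 and 890.5 in HPLM, a log2 ratio of 2.45 ± 0.14. ATF4, the translation-controlled factor of the integrated stress response, went from 8712, 8622 and 8762 to 22584, 21955 and 22501, a ratio of 1.36 ± 0.01. FOXO3 had a log2 ratio of 1.06 ± 0.04, NFE2L2 1.00 ± 0.05 and TFE3 0.45 ± 0.04, while TFEB, at -0.08 ± 0.11, did not pass (adjusted p = 0.441 in the authors' deposited table). These last 4 were named after their values were seen. Work in mouse cells has placed 12 autophagy genes under ATF4 or DDIT3, and all 12 are among the 35 genes already counted. Of these 12, 7 rose, 1 fell and 4 did not pass, with a median log2 fold change of 0.30 in the authors' deposited table. Over all 35 genes, 22 rose and the median was 0.33, and whether the 12 differed from the rest was not tested.

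The libraries held between 17504237 and 21676080 reads, and 3 reads, taken as the limit of detection, corresponded to 2.68 to 3.49 normalised reads, far under the lowest value of any of the 35 genes in a library, 67.1. All 9 neuroblastoma and sympathetic markers were measured. Their summed level was 147101, 147170 and 125888 normalised reads in EMEM/F12 libraries 1, 2 and 3, and 145011, 142107 and 148504 in the HPLM libraries. Of the marker lists for other cells, 1 of 5 blood genes (CD14, 43.8 to 74.4 normalised reads) and 1 of 4 epithelial genes (EPCAM, 5.81 to 14.3) were measured. All 6 fibroblast markers were, and their summed level was 36611 and 38965 in EMEM/F12 libraries 1 and 2, 85506 in library 3, and 70872, 73701 and 66025 in the HPLM libraries. EMEM/F12 library 3 therefore stood apart from the others of its medium in both the neuroblastoma and the fibroblast list. The HPLM fibroblast sums lay above those of EMEM/F12 libraries 1 and 2 and below that of library 3. In bulk RNA, fewer cells of a type and less RNA per cell cannot be told apart. Among the EMEM/F12 libraries, library 3 had the highest value for 12 of the 35 genes and the lowest for 10. Without it, 22 genes rose and 3 fell, as with it, and no log2 ratio moved by more than 0.17.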

How the data were processed

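Per the submitters' processing notes, the pipeline used Trimmomatic 0.36, STAR 2.5.2b, Subread 1.5.2 and DESeq2 with genome build GRCh38; no source at hand records the settings or the annotation release. Libraries were made with a TruSeq v2 kit from polyadenylated RNA, per the labels' protocols. The authors deposited 1 table of 16051 rows, 16005 genes and 46 spike-ins, with a normalised signal per library (reads divided by a size factor), a log2 fold change of HPLM over EMEM/F12, and p-values with Benjamini-Hochberg adjustment. All deposited signal values were whole multiples of 1 read within 0.01 reads, so reads were recovered. A DESeq2 1.42.0 rerun (R 4.3.3) gave the same call for 16051 of 16051 rows.

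The main test was the authors' deposited adjusted p under 0.05, since GEO lists 1 sample per medium. Log2 ratios of means, with standard errors from the SDs over libraries, were computed with Python 3.11.15 and differed from the deposited values by at most 0.0058 for the 35 genes. Levels per kilobase and coordinates used GENCODE 29; promoters were those of RefSeq. Alternatives were edgeR 4.0.16 with and without a filter and with other scaling, spike-in size factors, an adjusted p under 0.01, a mean of at least 100 normalised reads, a library block, leaving out each library, and recentring. The scripts were tested on simulated data. All 35 genes were named by rule; of each other list, at most the 2 largest rises and 2 largest falls with a mean of at least 100, with all allowed where 5 or fewer were called in a direction. The genes and lists were chosen with earlier results of these data known. Standard errors and SDs hold the spread between libraries, and the detection limit of 3 reads covers counting error only.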

Additional observations from a re-analysis of the deposited data

How the results depend on the processing

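The count of higher genes among the 35 lay between 21 and 24 over the 14 alternatives in which calls were counted, and 21 of the 22 rises kept their call in all of them, the exception being ATG7. Recentring shifted values and made no new calls. The count of lower genes, 3, was less stable: it was 0 at an adjusted p under 0.01, 5 with spike-in size factors (which added PIK3R4 and ATG10) and 0 to 3 on leaving out 1 library at a time. Correlations of library deviations between media were -0.08, -0.14 and -0.24 for same-numbered libraries and -0.16 to 0.23 for different-numbered ones. Deviations from the mean of 3 libraries sum to 0, so these values cannot decide whether the libraries were paired. With library number as a replicate block, DESeq2 called 21 genes higher and 0 lower. At an unadjusted p under 0.05 the block also gave 0 lower, where DESeq2 without the block called 3 lower and edgeR without it 4. With the block the log2 fold changes of ULK2, ATG3 and ATG4D were -0.45, -0.20 and -0.19, the same to 2 decimals as in the authors' deposited table. In the authors' deposited table, 3 genes were lower at an unadjusted p under 0.05 and 0 at an adjusted p under 0.01. For the other autophagy genes, higher calls numbered 26 in the main test, 21 with spike-in size factors and 32 with edgeR and TMM scaling. Lower calls numbered 5 with spike-in size factors and 2 to 5 on leaving out 1 library, with 5 reached without EMEM/F12 library 3. The block left 21 of these genes higher and 2 lower. The median log2 fold change of the 35 genes was 0.27 with spike-in size factors, which put the median of all genes at -0.05. Measured in reads in place of reads per kilobase, the family share of MAP1LC3B was 47.1% in EMEM/F12 and 68.3% in HPLM, and that of GABARAP 14.4% and 7.95%. With edgeR, GABARAP rose and ATG10 fell under each scaling tried, and WIPI2 rose with TMM scaling. Sign changes touched ATG14, ATG2A and ATG5, none of them called: ATG14 was at 0.019 with edgeR, with or without the filter on low counts, and between -0.047 and 0.022 on leaving out a library. ATG2A was at -0.037 and ATG5 at -0.012 with spike-in size factors, and on leaving out a library they lay between -0.0067 and 0.074 and between -0.0066 and 0.17. Depth was not varied; the lowest mean of the 35 genes, 89.7 normalised reads for ATG4C, compares with 2.68 to 3.49 for 3 reads.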
